A study of Mus musculus with 18 samples.

Results

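The average effect of a Kdm7a knockout on gene expression was measured across 3 states of the mouse macrophage line RAW264.7, by setting all 9 knockout libraries against all 9 control libraries with the condition kept as a factor. These 18 libraries are all 18 of the series, and the same fit gave the knockout effect within each condition, so that the average could be read beside its 3 parts. RAW264.7 is a macrophage-like line derived from a mouse tumour induced by Abelson murine leukaemia virus. Control cells carried a control guide RNA and knockout cells a guide RNA against Kdm7a, and poly(A) RNA was sequenced from 3 libraries of each genotype in each condition. All cells were collected at 48 hours. M0 cells received no stimulus. M1 cells received mouse interferon-gamma at 2 ng/ml with lipopolysaccharide at 0.1 µg/ml, a mixture that drives inflammatory activation. M2 cells received 20 ng/ml each of mouse IL-4, IL-10 and IL-13 plus 2 ng/ml of human TGF-beta 1, a mixture that drives alternative activation. The labels name 1 control line and 1 knockout line and do not say whether either is a clone, so differences between the lines that do not come from the loss of Kdm7a cannot be told apart from the knockout in any value below. They also do not say that the 3 libraries of a group came from separate cultures, so the p-values measure only library-to-library spread, part or all of which may be technical.

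Kdm7a encodes a histone demethylase of the Jumonji family. Its PHD finger binds a methylated histone tail typical of active promoters, and its Jumonji domain removes methyl groups linked to silent chromatin. In macrophages, such enzymes belong to the machinery that can alter which genes an inflammatory or alternative stimulus switches on. The family also holds Phf2 and Phf8, the closest relatives of Kdm7a.

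Values are TPM, a length-normalised share of all transcripts, and an effect is the difference between knockout and control in log2(TPM + 1), written as a log2 difference that is above 0 where the knockout was higher. Adding 1 TPM understates the change of genes at low levels. Of 24411 gene symbols, 11548 reached at least 1 TPM in at least 3 libraries and were tested, and a gene was called at an adjusted p under 0.05 over all tested genes. Condition took 94.7% of the sum of squares of the log2 values between libraries, the average knockout effect 2.03%, its differences between conditions 1.29% and the spread within groups 2.00%. Libraries of one group correlated at r = 0.994 to 0.997 across genes, and libraries of different genotype in one condition at 0.985 to 0.991. Of 12 macrophage markers, 11 were at or above 1 TPM in every library. Their summed level was 6648 to 6722 TPM in knockout M0 against 7750 to 7832 TPM in control M0, 7327 to 7505 against 7942 to 8080 TPM in M1, and 5091 to 5233 against 5844 to 6023 TPM in M2. The sum does not show its members apart: Lyz2 had the highest single value (3722 TPM), and Csf1r and Cd14 were higher in the knockout on the average. The part of that lower marker sum in the results below was not tested. Markers of T cells, mast cells, erythroid cells, fibroblasts and epithelial cells summed to at most 9.28 TPM in any library. Among those of B cells, neutrophils and dendritic cells, the highest single values came from Cd79a (21.2 TPM), S100a8 (62.0 TPM) and Siglech (30.7 TPM), while Ms4a1 and S100a9 were listed at 0 in all 18 libraries. These sums moved with genotype: neutrophil markers were at 54.6 to 63.4 TPM in control M1 against 11.6 to 14.9 TPM in knockout M1, dendritic cell markers at 10.2 to 11.8 against 30.9 to 31.9 TPM in M0, and B cell markers at 13.2 to 15.3 against 19.6 to 21.4 TPM in M2. Their part in the results was not tested. In bulk RNA, fewer cells of a kind and less RNA per cell cannot be told apart.

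The knockout changed many genes by small amounts and few genes by large amounts. On the average over conditions, 2111 genes were higher (18.3% of those tested) and 3692 were lower (32.0%). The median change was 0.16 among the higher genes and −0.17 among the lower ones, and 45 higher and 46 lower genes changed 2-fold or more. The split between higher and lower depended on scaling: 36.4% of called genes were higher with the TPM as deposited, 48.9% after TMM factors and 49.5% after median-of-ratios factors. The median of all tested genes was −0.03 on the average.

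Far fewer genes were called in every condition on its own. Within M0 2217 genes (19.2%) were called, within M1 5811 (50.3%) and within M2 3570 (30.9%). Only 678 were called in all 3 with one sign, 260 higher (2.25%) and 418 lower (3.62%). Their median average effects were 0.41 and −0.41, and 40 of them, 19 higher and 21 lower, changed 2-fold or more in each of the 3 conditions. In 368 genes (3.19%) every knockout library was above every control library of its condition in all 3 conditions, and in 669 genes (5.79%) every knockout library was below. Of the 678, 629 were among these genes without overlap.

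A shared direction did not mean a shared size. The test of the effect between conditions called 5268 genes (45.6%), and 340 of the 678 were among them. Adding 1 TPM makes an effect smaller where a gene is low, so part of these calls may come from levels that differ between conditions. That part was not tested. The largest of the 3 effects fell in M1 for 122 of the 260 higher and 219 of the 418 lower genes. Of the 5803 genes called on the average, 3690 (63.6%) had one sign in all 3 conditions, called or not, against 39.7% of all tested genes. The average is the mean of these 3 effects, so calling genes on it raises this share by itself. Another 789 genes (6.83%) were called in 2 conditions with opposite signs. Across all tested genes, effects correlated at Pearson r = 0.57 between M0 and M2, 0.40 between M0 and M1 and 0.36 between M1 and M2, with Spearman rho of 0.35, 0.28 and 0.27. Genes are not independent replicates, and the 3 effects share the 2 cell lines and the variance estimate but no library.

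**Figure D1:**
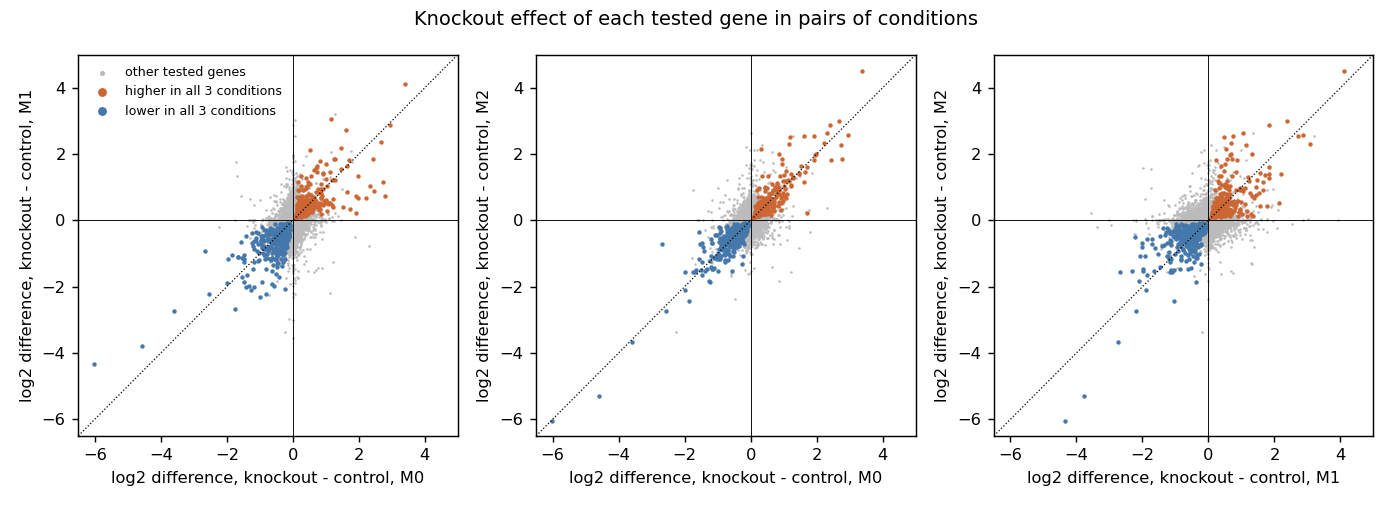
Each point is 1 of 11548 tested genes, placed by its log2 difference between knockout and control in 2 of the 3 conditions, with the line of equal effects dotted. The 260 genes called higher in all conditions (orange) and the 418 called lower (blue) keep to 2 quadrants because of how they were called, and many lie away from the dotted line.

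The targeted gene was lower in every knockout library. Kdm7a (chr6:39136620-39206773, GRCm38.p6 as annotated by RefSeq) was at 11.3, 11.0 and 11.0 TPM in control M0 and at 3.33, 3.25 and 3.52 TPM in knockout M0. It was at 30.3, 30.0 and 28.7 TPM in control M1 and at 7.66, 7.63 and 7.19 TPM in knockout M1. It was at 24.5, 23.3 and 22.2 TPM in control M2 and at 5.83, 7.54 and 7.04 TPM in knockout M2. The groups did not overlap, and knockout levels were 30.4%, 25.3% and 29.2% of control in M0, M1 and M2, with an average log2 difference of −1.66 (SE 0.039, adjusted p = 3.9e-17). A guide RNA cut can leave transcripts that still count toward the gene, so these levels do not give the amount of protein. Among 16 Jumonji demethylases, which include Kdm7a, 2 were higher (12.5%) and 5 lower (31.25%) on the average. These shares were 18.3% and 32.0% over all tested genes. Kdm7a was the only 1 of the 16 called in all 3 conditions. Its relatives Phf2 and Phf8 were not called on the average.

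In the 4 largest shared falls, little signal was left in the knockout, at most 0.55 TPM for Rhox5, Fam172a and Zfp97 and 3.28 TPM for Gpr34. Rhox5 (chrX:37754608-37808878), a homeobox gene of the reproductive Rhox cluster, was at 73.6, 70.8 and 71.3 TPM in control M0, at 20.0, 18.7 and 21.8 TPM in control M1 and at 76.8, 79.99 and 82.3 TPM in control M2. Its 9 knockout libraries held 0 to 0.28 TPM. Rhox genes are close copies of each other, so reads may have been split among them. Its average log2 difference was −5.46 (SE 0.049, adjusted p = 4.7e-24). Gpr34 (chrX:13622650-13640859), a receptor for lysophosphatidylserine, was at 87.5, 89.5 and 99.7 TPM in control M0 against 2.82, 3.28 and 2.59 TPM in knockout M0. It was at 26.0, 23.9 and 23.7 TPM against 0.76, 1.21 and 0.64 TPM in M1, and at 49.2, 48.6 and 49.8 TPM against 0.30, 0.16 and 0.38 TPM in M2. Control and knockout libraries of Gpr34 did not overlap in any condition, and its average log2 difference was −4.55 (SE 0.055, adjusted p = 4.5e-22).

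Fam172a (chr13:77708677-78166240) was at 5.10 to 12.4 TPM in the 9 control libraries, with a median of 11.0 TPM. In the knockout it was listed at 0 in 6 of 9 libraries and reached 0.05 TPM at most. The average log2 difference was −3.34 (SE 0.046, adjusted p = 4.2e-21). Zfp97 (chr17:17121108-17147138), a zinc finger gene of a family with many near copies, was at 4.38 to 7.53 TPM in the control libraries and at 0 to 0.55 TPM in the knockout libraries. Its average log2 difference was −2.50 (SE 0.069, adjusted p = 3.1e-16). These 4 genes had the same direction and no overlap in M0, M1 and M2.

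The further falls included several cell surface receptors. Cd86, a co-stimulatory ligand for T cells, was at 11.7 ± 0.90 TPM (SD, n = 3) in control M0 against 3.0 ± 0.040 TPM (SD, n = 3) in knockout M0. It was at 219 ± 8.3 against 100.3 ± 2.3 TPM in M1 and at 5.36 ± 0.57 against 1.27 ± 0.11 TPM in M2 (SD, n = 3 each). The average log2 difference of Cd86 was −1.43 (SE 0.037, adjusted p = 1.5e-16), without overlap in any condition. Axl, a receptor tyrosine kinase used in clearing dead cells, fell by 1.56 on average, with a mean of 3.39 TPM in control M0 against 0.11 TPM in knockout M0. Msr1, the class A scavenger receptor, fell by 1.44 on average, but by 2.67 in M0 against 0.93 in M1 and 0.71 in M2. Cd200r2 and Cd200r4, of the CD200 receptor family whose members are close copies, fell by 1.78 and 1.42, so reads may have been split between them. Espnl, an espin-like actin bundling gene, fell by 1.99, and Serpinb6b, an intracellular serine protease inhibitor, by 1.45.

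**Figure D2:**
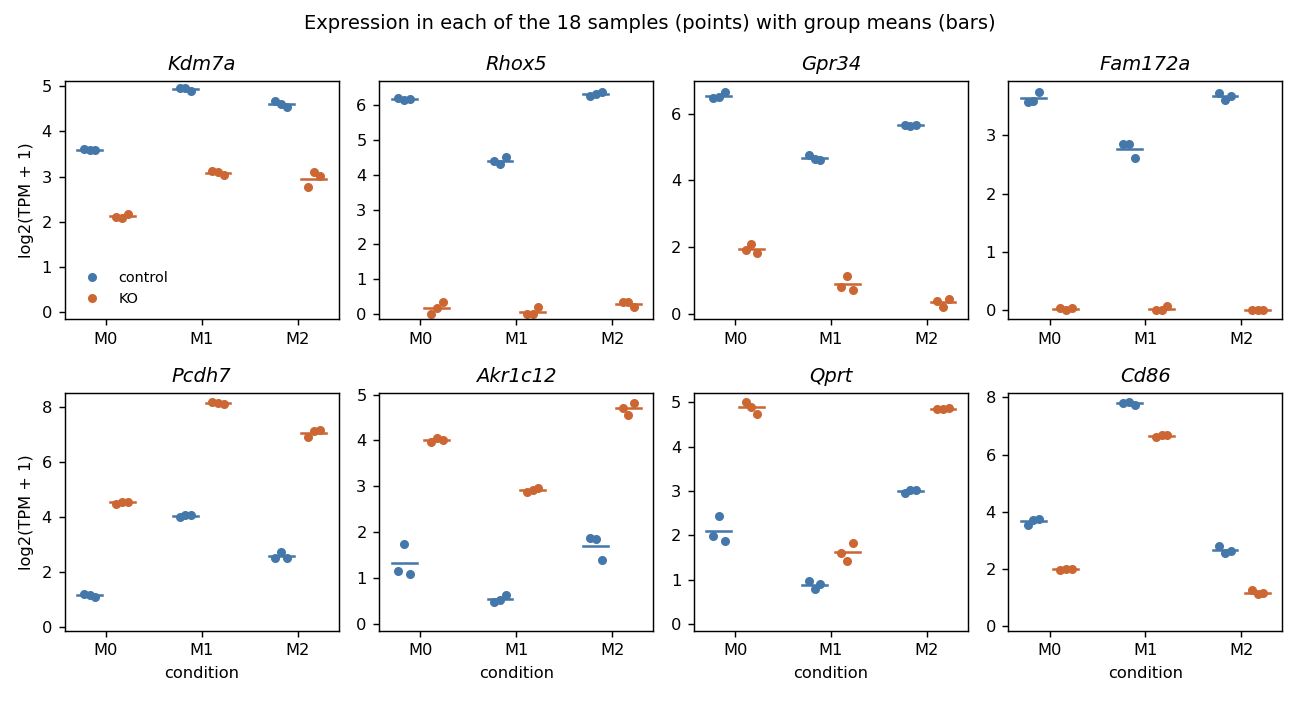
Points show log2(TPM + 1) of 8 genes in each of the 18 samples (control blue, knockout orange, 3 per group, by condition), and bars show group means. Kdm7a, Rhox5, Gpr34, Fam172a and Cd86 were lower and Pcdh7, Akr1c12 and Qprt were higher in all knockout samples of each condition.

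The largest shared rise was that of Pcdh7 (chr5:57716145-58133236), a protocadherin that joins cells to each other. It was at 1.30, 1.23 and 1.10 TPM in control M0 against 21.5, 22.6 and 22.4 TPM in knockout M0. It was at 15.1, 15.7 and 15.9 TPM against 289, 282 and 278 TPM in M1, and at 4.64, 5.55 and 4.70 TPM against 121, 140 and 144 TPM in M2. The knockout level was 18.3, 18.2 and 27.2 times the control level in the 3 conditions, and the average log2 difference was 4.0 (SE 0.037, adjusted p = 4.7e-24).

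The rises next in size included enzymes. Akr1c12 (chr13:4268172-4279399), an aldo-keto reductase, was at 1.56 ± 0.67 against 15.1 ± 0.48 TPM in M0, 0.46 ± 0.074 against 6.57 ± 0.19 TPM in M1 and 2.29 ± 0.59 against 25.0 ± 2.4 TPM in M2 (control against knockout, SD, n = 3 each). It rose by 2.69 on average (SE 0.081, adjusted p = 5.8e-15), and its near copy Akr1c13 was also called higher in all 3 conditions, so their reads may overlap. Qprt, which makes the nicotinic acid nucleotide from quinolinate in NAD synthesis, was at 2.95, 4.42 and 2.68 TPM in control M0 and at 31.0, 28.7 and 25.8 TPM in knockout M0. Its rise was 2.78 in M0, 0.73 in M1 and 1.86 in M2. Hpn, a membrane serine protease known from liver, was listed at 0, 0 and 0.11 TPM in control M0 and at 4.82, 4.08 and 4.69 TPM in knockout M0. Afp, the fetal serum protein alpha-fetoprotein, rose by 2.00 on average, from 2.01 ± 0.30 to 14.1 ± 1.4 TPM in M0 (SD, n = 3 each).

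The other large shared rises spanned several functions. Tmem26, a transmembrane protein, rose by 2.29. H2-Ab1, the beta chain of an MHC class II molecule, rose by 1.73, from 6.31 ± 0.34 to 41.3 ± 2.4 TPM in M2 (SD, n = 3 each). Il11ra1, the interleukin 11 receptor, rose by 1.53, and it has near copies in the mouse genome that may share its reads. Capn1, a calcium-dependent protease, rose by 1.47, and Btla, an inhibitory receptor of lymphocytes and myeloid cells, by 1.46. Kctd17, an adaptor of a ubiquitin ligase, rose by 1.27, and Zfyve9, an anchor protein of the TGF-beta pathway, by 1.26 with near equal effects of 1.28, 1.20 and 1.30 in M0, M1 and M2.

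**Figure D3:**
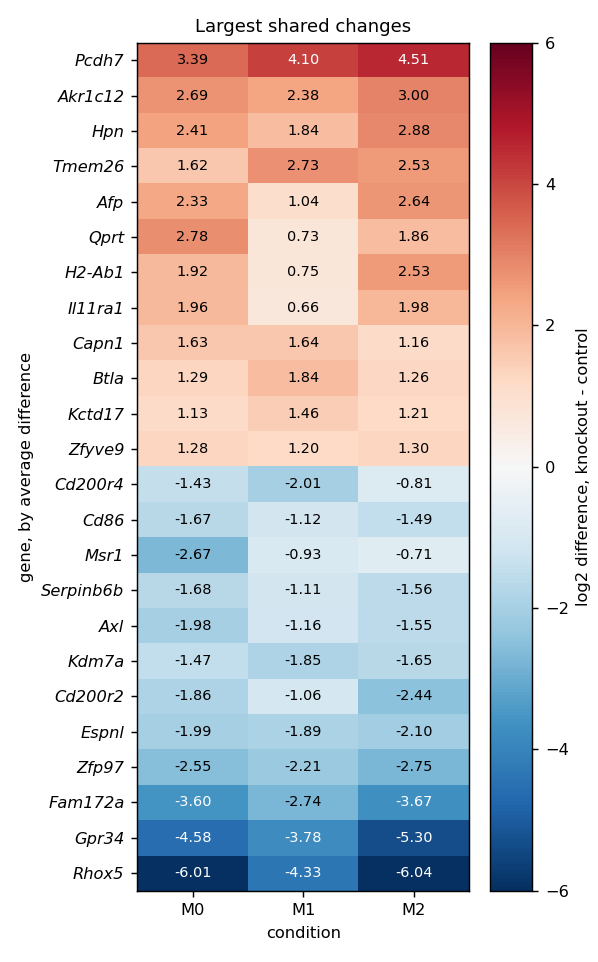
Log2 differences between knockout and control in M0, M1 and M2 (columns) for the 12 largest shared rises and the 12 largest shared falls (rows), written in each cell and coloured from blue (lower) to red (higher). Zfyve9 and Espnl had near equal effects in the 3 conditions, while Qprt and Msr1 had their largest effect in M0.

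Most genes of the integrated stress response were lower in each condition. In this response, kinases that sense stress or amino acid shortage raise the transcription factor ATF4, which turns on genes for amino acid import and synthesis. Of 23 tested genes in the list, 19 were lower (82.6%) and 1, Atf3, was higher (4.35%) on the average. Over all tested genes 32.0% were lower and 18.3% higher. The median was −0.28 in the list against −0.03 over all tested genes. In M0, M1 and M2, 16, 17 and 17 of the 23 were lower, beside 1194, 3857 and 2108 of all 11548 tested genes. Lower in all 3 were 11 of the 23, beside 3.62% of all tested genes. In M1, 3 members were higher, Stc2 by 0.40, Atf3 by 0.24 and Nupr1 by 0.17, and in M2 1 was higher, Atf3 by 0.60. Over all tested genes 1954 were higher in M1 and 1462 in M2.

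Slc7a11, the cystine importer of macrophages, led the list and is also in the list of NRF2 targets given below. It was at 18.01, 16.6 and 17.4 TPM in control M0 against 6.79, 7.35 and 6.94 TPM in knockout M0. It was at 100.1, 102 and 96.5 TPM against 40.3, 42.6 and 39.8 TPM in M1, and at 7.30, 6.93 and 6.63 TPM against 2.18, 3.17 and 3.07 TPM in M2. The knockout level was 40.6%, 41.1% and 40.4% of control in the 3 conditions, close to each other although the control level differed many-fold between them, and the average log2 difference was −1.18 (SE 0.044, adjusted p = 4.1e-14). Ddit3, the stress transcription factor CHOP, fell by 0.71 on average, from 122 ± 2.3 to 65.0 ± 0.33 TPM in M0 (SD, n = 3 each). Asns, asparagine synthetase, fell by 0.50, most in M1, where it was at 198 ± 7.9 against 104 ± 2.5 TPM (SD, n = 3 each). Trib3, a pseudokinase induced by ATF4, fell by 0.49, and Atf4 itself by 0.18. The others lower in all 3 conditions were Psph and Psat1 of serine synthesis, Pck2, Slc3a2, which pairs with Slc7a11, Aldh18a1 of proline synthesis and Mthfd2 of the folate cycle.

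Promoters of this list were searched for the C/EBP-ATF response element, spelled TGATGNAA, on both strands. Of 22 listed genes with a promoter window in RefSeq (GRCm38.p6), 7 (31.8%) held it, against 2.96% of 8784 tested genes with a window and 3.97% of all 32851 windows. The list was written from general knowledge of this response, so its share may come from that choice and says nothing about the knockout. Of the 7, Atf3 was higher and Nupr1 was not called on the average, and the others were lower. The 3 members lower in all 3 conditions with the largest changes and a match in the 250 bases before the annotated start are shown, so that the letters can be read beside their values. Each is written 5′ to 3′ on the strand of the gene with the match in capitals, and Slc7a11 holds 2 matches, at 66 and 47 bases before its start.
Slc7a11, chr3:50443614-50443863, minus strand: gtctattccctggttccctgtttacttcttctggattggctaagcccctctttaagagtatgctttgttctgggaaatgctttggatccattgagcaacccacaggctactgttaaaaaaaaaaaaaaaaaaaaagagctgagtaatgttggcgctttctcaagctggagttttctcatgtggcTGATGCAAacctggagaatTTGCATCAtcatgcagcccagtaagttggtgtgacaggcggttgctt
Asns, chr6:7693210-7693459, minus strand: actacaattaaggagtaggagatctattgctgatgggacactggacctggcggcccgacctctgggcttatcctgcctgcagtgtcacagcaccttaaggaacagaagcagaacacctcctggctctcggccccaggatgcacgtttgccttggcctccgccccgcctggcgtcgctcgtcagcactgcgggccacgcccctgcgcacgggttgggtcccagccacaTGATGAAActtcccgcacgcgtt
Pck2, chr14:55540016-55540265, plus strand: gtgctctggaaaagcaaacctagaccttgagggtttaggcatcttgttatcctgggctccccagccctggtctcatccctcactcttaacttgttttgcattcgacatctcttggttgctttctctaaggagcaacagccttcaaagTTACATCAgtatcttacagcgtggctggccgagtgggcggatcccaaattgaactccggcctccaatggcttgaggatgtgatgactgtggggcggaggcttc
Pck2, the mitochondrial phosphoenolpyruvate carboxykinase, fell by 0.35 on average and was named for its promoter after its values were seen. A match describes letters and was not tested as a binding site.

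Chaperones of the endoplasmic reticulum were lower mainly without stimulation. Of 20 tested genes of this list, 18 were lower (90.0%) and 0 higher on the average, against 32.0% and 18.3% of all tested genes. The median of the list was −0.15, and its 2 members that were not called also had averages below 0. In M0, 19 were lower and the median was −0.41. In M1, 5 were lower and 5 higher with a median of 0.00, and in M2 6 were lower and 1 higher with a median of −0.06. Over all 11548 tested genes 1194, 3857 and 2108 were lower and 1023, 1954 and 1462 higher in M0, M1 and M2. Without the M0 libraries 9 of the 20 were lower on the average, so this list is not a change of like size in the 3 conditions. Creld2, a chaperone-like protein induced by unfolded proteins, was at 224 ± 10 against 139 ± 1.9 TPM in M0 and at 117 ± 1.3 against 117 ± 6.5 TPM in M1 (SD, n = 3 each), and its average log2 difference was −0.27. Manf, a secreted stress protein, had an average of −0.28, with −0.63 in M0 and −0.05 in M1.

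Only Dnajc3, a co-chaperone that restrains a kinase of the stress response, was lower in all 3 conditions, by 0.41, 0.20 and 0.12. Its promoter is shown because it holds the endoplasmic reticulum stress element, spelled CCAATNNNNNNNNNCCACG and searched on both strands. That element was in 8 of 17 listed genes with a window (47.1%), against 0.137% of tested genes with a window and 0.119% of all windows. This list too was written from general knowledge, so its share says nothing about the knockout. The match stands in capitals, 105 bases before the start.
Dnajc3, chr14:118937682-118937931, plus strand: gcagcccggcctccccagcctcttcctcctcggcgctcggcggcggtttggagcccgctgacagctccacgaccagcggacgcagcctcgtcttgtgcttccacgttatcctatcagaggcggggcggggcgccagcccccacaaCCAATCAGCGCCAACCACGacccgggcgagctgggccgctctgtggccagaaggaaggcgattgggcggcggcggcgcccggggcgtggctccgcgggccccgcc

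Of 21 tested genes in the list of p53 and its targets, 13 were lower (61.9%) and 4 higher (19.05%) on the average. Over all tested genes these shares were 32.0% and 18.3%. The median of the list was −0.19. Within M0, M1 and M2, 10, 8 and 11 of the 21 were lower and 2, 6 and 1 higher. The medians were −0.19, −0.05 and −0.16, and that of all tested genes in M1 was −0.06. Over all 11548 tested genes 1194, 3857 and 2108 were lower and 1023, 1954 and 1462 higher. Values of the 4 members that were higher on the average are not shown. Lower in all 3 conditions were 5 of the list, Gdf15, Gadd45a, Eda2r, Tigar and Mdm2, beside 3.62% of all tested genes. Gdf15, a stress-induced cytokine, fell by 0.92 from 2.39 ± 0.35 to 0.93 ± 0.16 TPM in M0 (SD, n = 3 each). Gadd45a, a growth arrest gene, fell by 0.59 on average, and was at 5.21 ± 0.66 against 2.52 ± 0.56 TPM in M0 (SD, n = 3 each).

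Targets of hypoxia-inducible factor moved the other way. This factor is degraded in oxygen by prolyl hydroxylases of the Egln family, and in activated macrophages it raises glucose uptake and glycolysis. Of 18 tested genes in the list, 16 were higher (88.9%) and 0 lower on the average by limma. Over all tested genes 18.3% were higher and 32.0% lower. The median was 0.23 in the list against −0.03 over all tested genes. In M0, M1 and M2, 10, 13 and 14 of the 18 were higher, beside 1023, 1954 and 1462 of all 11548 tested genes. Higher in all 3 were 8 of the 18, beside 2.25% of all tested genes. Car9 and Adm were not called, with averages of 0.07 and 0.18.

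Egln3, an oxygen sensor that is itself induced by hypoxia, rose most. It was at 5.55, 6.34 and 6.39 TPM in control M0 against 11.3, 10.8 and 13.3 TPM in knockout M0. It was at 16.9, 16.4 and 15.6 TPM against 37.1, 36.8 and 34.6 TPM in M1, and at 13.7, 14.6 and 14.97 TPM against 29.0, 32.7 and 27.1 TPM in M2. The knockout level was 1.93, 2.22 and 2.05 times that of control without overlap in any condition, and the average log2 difference was 0.98 (SE 0.043, adjusted p = 6.1e-13). Ndrg1, a stress gene, rose by 0.44, and Bnip3, a mitophagy receptor, by 0.41, with 884 ± 15 against 1153.5 ± 28 TPM in M1 (SD, n = 3 each). Pdk1, which keeps pyruvate out of mitochondria, rose by 0.36, and Hif1a itself by 0.29. The other members higher in all 3 conditions were Ankrd37, Egln1 and Pfkfb3.

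The hypoxia response element core ACGTG, searched on both strands, was in 12 of 16 listed genes with a window (75%), against 30.1% of tested genes with a window and 19.6% of all windows. These letters are also the core of the E-box CACGTG, and they can overlap the CCACG end of the endoplasmic reticulum stress element. As with the other 2 motifs, the list was written from general knowledge, so its share says nothing about the knockout. The 3 promoters below were chosen like those of the stress response list, and the 2 matches in Bnip3 lie on opposite strands of a single E-box.
Egln3, chr12:54203875-54204124, minus strand: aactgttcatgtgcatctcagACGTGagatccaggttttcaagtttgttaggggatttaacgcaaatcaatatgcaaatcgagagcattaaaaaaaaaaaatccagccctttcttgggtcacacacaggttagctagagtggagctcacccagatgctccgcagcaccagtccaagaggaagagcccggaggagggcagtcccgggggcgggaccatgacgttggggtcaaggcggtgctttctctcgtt
Bnip3, chr7:138909507-138909756, minus strand: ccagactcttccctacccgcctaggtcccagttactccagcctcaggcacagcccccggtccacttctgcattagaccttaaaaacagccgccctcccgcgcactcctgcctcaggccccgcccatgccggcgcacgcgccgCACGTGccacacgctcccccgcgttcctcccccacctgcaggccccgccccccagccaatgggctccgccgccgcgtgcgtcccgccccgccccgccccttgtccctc
Ankrd37, chr8:45999851-46000100, minus strand: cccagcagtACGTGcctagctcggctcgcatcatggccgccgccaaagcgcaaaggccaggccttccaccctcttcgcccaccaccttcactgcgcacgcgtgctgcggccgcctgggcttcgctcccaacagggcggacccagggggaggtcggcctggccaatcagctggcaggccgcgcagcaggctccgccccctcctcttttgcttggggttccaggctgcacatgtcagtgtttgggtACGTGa
Ankrd37, an ankyrin repeat gene, rose by 0.34 on average and, like Pck2, was named after its values were seen.

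Glycolysis genes were higher as well, and 4 of the 22 tested members are also in the list of hypoxia-inducible factor targets. Over all tested genes 18.3% were higher and 32.0% lower on the average. Of the 22, 18 were higher (81.8%) and 1, Hk3, was lower (4.5%), with a median of 0.12. The 7 shared rises were Pdk1, Aldoc, Hk1, Pfkfb3, Pfkl, Pgk1 and Gpi1, all small: Aldoc, an aldolase, rose by 0.26 and was at 63.2 ± 0.26 against 84.0 ± 2.1 TPM in M1 (SD, n = 3 each). Hk3, the myeloid hexokinase, was at 554 ± 8.8 against 299 ± 6.4 TPM in M1 (SD, n = 3 each), and its effects of −0.61 in M0, −0.89 in M1 and 0.16 in M2 were each called. Of 45 tested genes of oxidative phosphorylation, 12 were higher (26.7%) and 14 lower (31.1%) with a median of −0.01, and 6 were lower after TMM factors.

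**Figure D4:**
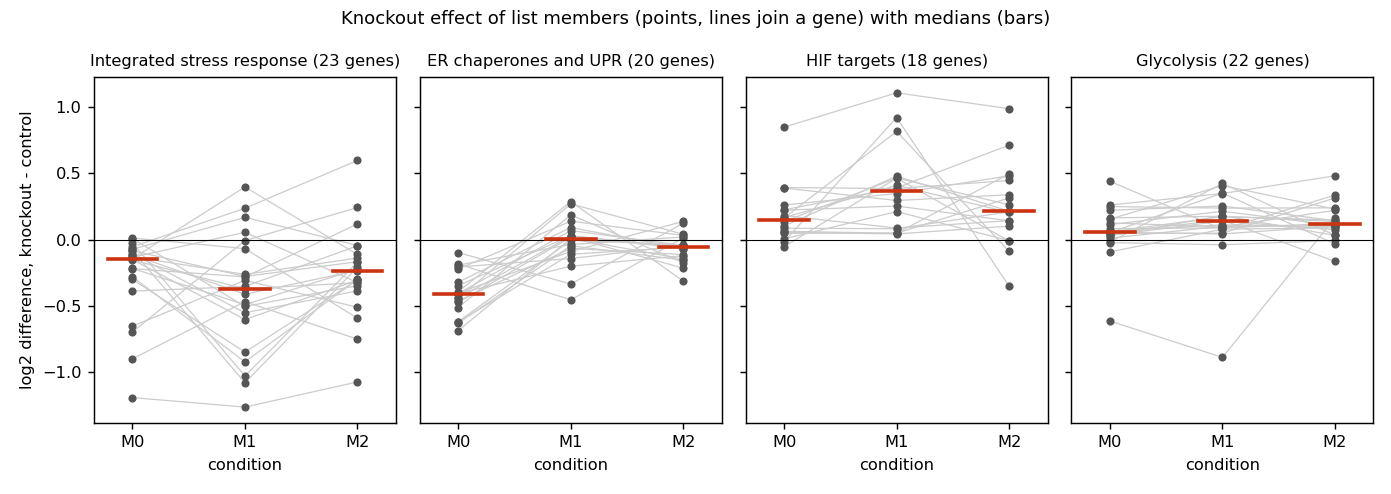
Each point is a tested member of 1 of 4 gene lists, placed by its log2 difference between knockout and control in M0, M1 and M2, with grey lines joining a gene and red bars at the medians. The stress response members lie mostly below 0 and the hypoxia-inducible factor targets mostly above 0 in the 3 conditions, while the chaperones lie below 0 in M0 and near 0 in M1 and M2.

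Antigen presentation genes were called higher more often than lower on the average. Over all tested genes 18.3% were higher and 32.0% lower. Of 13 tested MHC class II genes, 9 were higher (69.2%) and 1 lower (7.69%) with a median of 0.27, and 4 were higher without the M2 libraries. Within M0, M1 and M2, 3, 5 and 9 of the 13 were higher, beside 1023, 1954 and 1462 of all 11548 tested genes. Beside H2-Ab1, only H2-Ob, the beta chain of a class II modulator, was higher in all 3 conditions, by 0.64 on average. Cd74, the invariant chain, was at 506 ± 13 against 504 ± 27 TPM in M0 and at 837 ± 20 against 1719.8 ± 61 TPM in M1 (SD, n = 3 each). H2-Aa, the alpha chain that pairs with H2-Ab1, was at 9.76 ± 0.83 against 37.3 ± 4.2 TPM in M2 (SD, n = 3 each) and at most 0.41 TPM in the knockout libraries of M0, and its average was no longer called without M2. Of 20 MHC class I genes, 11 were higher and 3 lower on the average. Within M0, M1 and M2, 8, 7 and 3 of the 20 were higher, beside the same counts of all tested genes as above. Tap2, a peptide transporter, rose by 0.26 with effects of 0.32, 0.22 and 0.25. Class I genes have near copies whose reads may be split.

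Of 22 tested genes of the M1 list, 5 were higher (22.7%) and 7 lower (31.8%) with a median of 0.02, near the shares of all tested genes (18.3% and 32.0%). Nos2, the inducible nitric oxide synthase, was at 3573 ± 55 against 3446 ± 54 TPM in M1 (SD, n = 3 each), with an average log2 difference of −0.03 (SE 0.24, adjusted p = 0.93). Its 3 control M2 libraries were at 2.04, 5.24 and 0.23 TPM, and without the first and the second of them its average was 0.38 and called. Il6 had an average of 0.02 (adjusted p = 0.91), which became 0.29 and called without the same libraries, and was at 1550.2 ± 59 against 1599 ± 23 TPM in M1 (SD, n = 3 each). Tnf had an average of −0.25, with 2147 ± 28 against 1542 ± 21 TPM in M1 (SD, n = 3 each). Cxcl10, an interferon-induced chemokine, had an average of −0.60, with effects of −0.27, −0.21 and −1.33 in M0, M1 and M2. It was at 942 ± 13 against 812 ± 17 TPM in M1 and at 7.10 ± 0.16 against 2.24 ± 0.33 TPM in M2 (SD, n = 3 each). Socs3, a feedback inhibitor of cytokine signals, rose by 0.88 on average and by 0.59 to 1.03 in the 3 conditions.

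Among 17 tested genes of the M2 list, 11 were higher (64.7%) and 2 lower (11.8%), against 18.3% and 32.0% of all tested genes. The median of the list was 0.28. Within M2, 9 of the 17 were higher, beside 1462 of all 11548 tested genes. Tgm2, a transglutaminase, rose by 0.99 on average, and by 2.14 in M2, where it was at 78.3 ± 7.9 against 350 ± 36 TPM (SD, n = 3 each). Arg1, arginase, was at 1876 ± 58 against 5070.2 ± 137 TPM in M2 (SD, n = 3 each), and its average of 0.94 (SE 0.31, adjusted p = 0.023) was no longer called without the M0 libraries, without the M2 libraries, without those 2 control libraries or in an additive fit of genotype and condition. Arg1 had effects of 1.87 in M0, −0.49 in M1 and 1.43 in M2, each with an SE of 0.53, and only that in M0 was called. The fit takes 1 spread per gene from all 6 groups, so variation at a few TPM in M0 and M1 enters the SE in M2. In M2 the Arg1 libraries did not overlap, at 1831, 1941 and 1857 TPM in the control and 5191, 5097 and 4922 TPM in the knockout. In M0 Arg1 was at 0.34, 0 and 0.07 TPM in the control and at 0.59, 4.83 and 6.58 TPM in the knockout. Mrc1, the mannose receptor, stayed under 3 TPM in every group and had an average of 0.36. Il1b rose by 0.36 on average and was called within M1 only, where it was at 337 ± 14 against 806 ± 8.8 TPM (SD, n = 3 each). Its average was not called with a pseudocount of 0.1 TPM or in the additive fit, and was −0.09 without M1.

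Receptor lists had calls in both directions, as all tested genes did (18.3% higher and 32.0% lower). Of 19 scavenger and lectin receptors, 5 were higher (26.3%) and 8 lower (42.1%) on the average. In all 3 conditions 2 of the 19 were higher and 5 lower, beside 2.25% and 3.62% of all tested genes. Cd36, which takes up oxidised lipoprotein and fatty acids, rose by 1.18 while Msr1 fell, and was at 32.4 ± 2.5 against 132 ± 5.7 TPM in M2 (SD, n = 3 each). Clec4a3, an inhibitory lectin, fell by 0.82. Of 16 purinergic and related receptors, 5 were higher and 7 lower, with Gpr34 and S1pr1 among those lower in all 3 conditions. S1pr1, a receptor for sphingosine 1-phosphate, fell by 1.13 with effects of −1.03, −1.21 and −1.16. Of 16 chemoattractant receptors, 5 were higher (31.2%) and 6 lower (37.5%). C5ar1, the complement C5a receptor, fell by 1.14.

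The remaining immune lists are given as counts beside 18.3% higher and 32.0% lower among all tested genes, and nothing particular to them is read from these. Chemokines counted 5 higher and 7 lower of 15, interferon-stimulated genes 3 and 10 of 38, and NF-kappaB subunits and targets 9 and 2 of 23. Toll-like receptors counted 4 and 6 of 21 (19.05% and 28.6%), or 9 and 3 after TMM factors. Fc receptors and complement counted 5 and 7 of 17, integrins 7 and 6 of 17, costimulation and TNF receptor genes 6 and 7 of 19, and the interleukin 1 family 5 and 3 of 13. In the osteoclast list 4 and 4 of 12 were called, with Dcstamp, a cell fusion protein, and Csf1r, the receptor that keeps macrophages alive, higher in all 3 conditions. Dcstamp rose by 1.05, and Csf1r by 0.39 with 443 ± 9.4 against 571 ± 15 TPM in M0 (SD, n = 3 each). Of 13 proteases 3 were higher and 5 lower, and Plau, the urokinase that activates plasminogen, fell by 0.98 with 207 ± 2.9 against 116 ± 7.5 TPM in M2 (SD, n = 3 each).

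Lists on growth, lysosomes and lipids depended on the condition. Over all tested genes 32.0% were lower and 18.3% higher on the average. Of 36 cell cycle genes, 25 were lower (69.4%) and 2 higher (5.56%) with a median of −0.18. But in M0 1 of the 36 was lower and 6 were higher, beside 1194 and 1023 of all 11548 tested genes. Ccne1 alone was lower in all 3. Ccnb1, a mitotic cyclin, was at 260 ± 11 against 237 ± 7.6 TPM in M0 and at 190 ± 3.3 against 142 ± 7.5 TPM in M2 (SD, n = 3 each). Of 31 lysosomal genes, 16 were lower (51.6%) and 6 higher (19.35%), and without the M1 libraries 6 were lower and 10 higher. Ctsd, a lysosomal protease, and Cd63, a membrane protein of late endosomes, were lower in all 3 conditions, by 0.59 and 0.63 on average. Cholesterol synthesis genes counted 11 higher and 1 lower of 23, or 4 and 3 without the M1 libraries, and Srebf2, the master regulator of this pathway, rose by 0.23.

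The next counts also stand beside 18.3% higher and 32.0% lower among all tested genes. For lipid handling by LXR and PPAR, 9 of 21 were higher (42.9%) and 5 lower (23.8%). Abcg1, a cholesterol exporter, rose by 0.39 with effects of 0.40, 0.42 and 0.36, and Plin2, a lipid droplet coat protein, fell by 0.60. NRF2 targets counted 5 higher and 10 lower of 19, or 9 and 3 without the M1 libraries. Aldo-keto reductases and NAD genes counted 6 and 4 of 17, and 4 were higher in all 3 conditions. Ribosomal protein genes counted 11 and 5 of 44, or 21 and 1 after TMM factors. Histone methyltransferases counted 4 and 3 of 12. Hox genes and neural Polycomb targets counted 2 and 6 of 16, with Pcdh7 the only member called in all 3 conditions. Of 3 tested germline genes 2 were lower, including Rhox5, and of 6 tested imprinted genes 3 were lower. Igf2r, an imprinted receptor that carries enzymes to lysosomes, fell by 0.98 with effects of −0.93, −0.83 and −1.17.

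**Figure D5:**
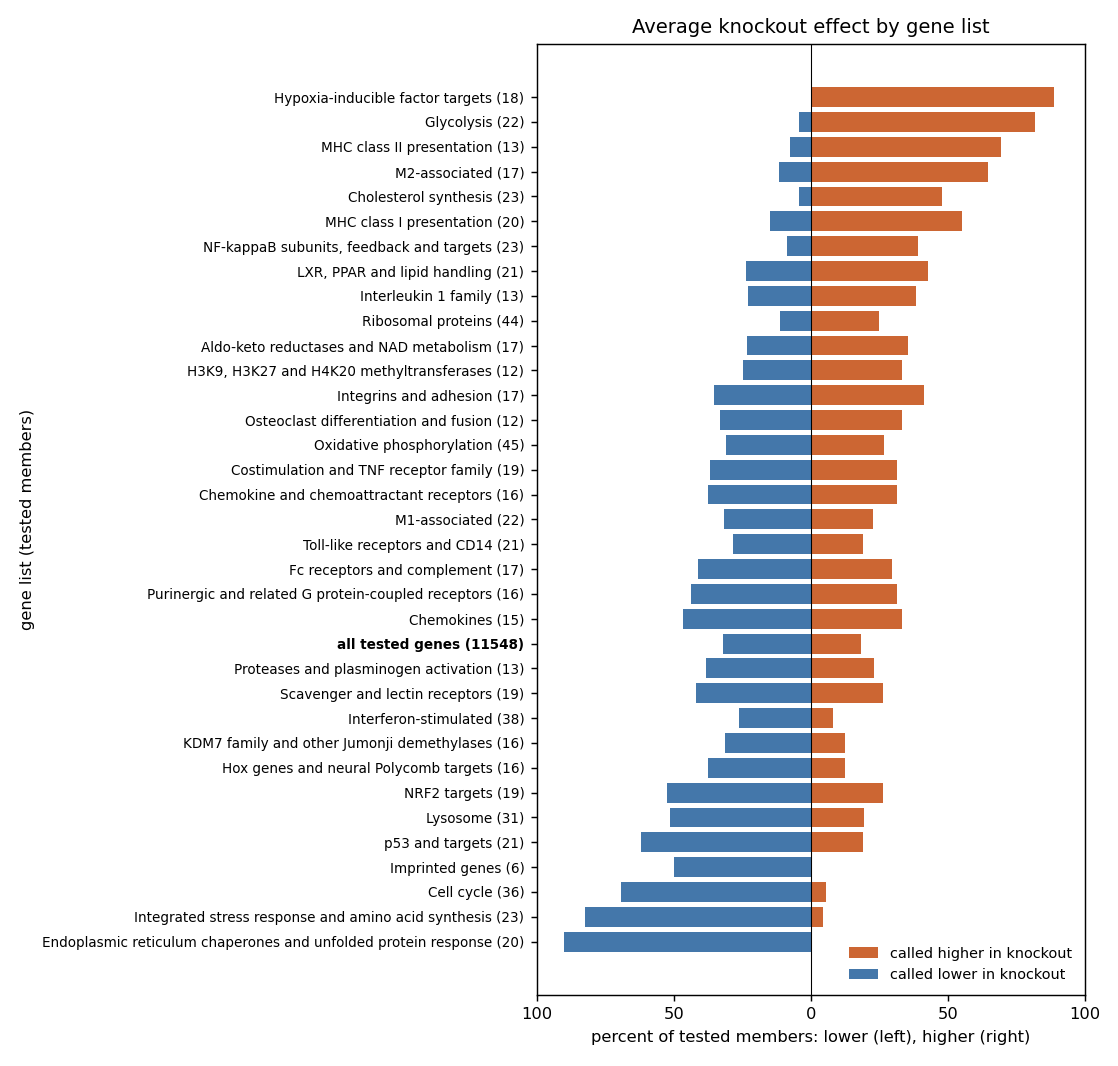
Bars show the percentage of tested members called higher (right) and lower (left) on the average over conditions for each gene list with at least 5 tested members, with their number in brackets and all 11548 tested genes in bold. Hypoxia-inducible factor targets and glycolysis stand at the higher end, and the chaperone, stress response and cell cycle lists at the lower end.

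The average was a poor summary for genes whose effects had opposite signs. Hbegf, a growth factor of the EGF family, had an average of −0.05 (adjusted p = 0.50), with −1.73 in M1 and 1.55 in M2. It was at 7.18 ± 0.88 against 1.47 ± 0.36 TPM in M1 and at 4.66 ± 0.27 against 15.5 ± 0.79 TPM in M2 (SD, n = 3 each). Mcoln2, an endolysosomal cation channel, had effects of −0.65, −1.93 and 0.65 in M0, M1 and M2. Cd300lh, an immune receptor, had −1.75 in M1 and 0.99 in M2. Spsb1, a ubiquitin ligase adaptor, had 0.75 in M1 and −1.57 in M2, Siglech, a sialic acid binding lectin, 1.47 in M0 and −0.84 in M2, and Asb11, another ligase adaptor, −0.23 in M1 and 2.05 in M2.

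Other averages rested on 1 or 2 conditions. Il1rn, the interleukin 1 receptor antagonist, had an average of −1.27, but −3.38 in M1, where it was at 320 ± 12 against 29.8 ± 1.6 TPM (SD, n = 3 each), and it stayed under 1 TPM in M0 and M2. Plk2, a stress-linked kinase, was at 10.5 ± 0.43 TPM in control M1 (SD, n = 3) and at no more than 0.19 TPM in M0 and M2. Ccl22, a chemokine for regulatory T cells, was at 5.01 ± 0.94 against 47.4 ± 0.90 TPM in M1 (SD, n = 3 each) and near 0 in M0 and M2. P2ry12, an ADP receptor, was at 11.4 ± 0.56 against 0.21 ± 0.14 TPM in M2 and at 4.11 ± 0.43 against 0.073 ± 0.040 TPM in M0 (SD, n = 3 each), and under 1 TPM in M1. H2-Ea-ps, an MHC pseudogene, was at 7.41 ± 0.94 against 39.1 ± 1.0 TPM in M2 (SD, n = 3 each). For Ccl22, Plk2 and H2-Ea-ps the average was no longer called without the condition in which they were present.

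The changes were spread over the genome. Among 10966 tested genes with a RefSeq position, chromosome medians of the average log2 difference ran from −0.055 (chromosome 17) to −0.0069 (chromosome 12). Of all tested genes, 18.3% were higher and 32.0% lower on the average. Kdm7a lies on chromosome 6, and of 18 other tested genes within 1 Mb of it, 3 were higher and 3 lower with a median of −0.02. Of the 18, 1 was called in all 3 conditions with one sign, beside 678 of all 11548 tested genes. The largest average difference among the 18 was that of Tbxas1, thromboxane synthase, at 0.73.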

How the data were processed

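Poly(A) RNA of 18 RAW264.7 libraries was sequenced, per the labels' protocols, with a kit whose name does not state strand, so reads of overlapping or antisense genes cannot be told apart. The authors deposited 1 table of TPM values per gene symbol. Reads were trimmed with Trim Galore and the build was mm10, per the submitters' processing notes. For the aligner and the quantifier, a name is not given in the sources used here. TPM keeps no depth, so the depth per library is unknown and no counting interval is given. Groups and doses came from the labels.

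From the deposited TPM, log2(TPM + 1) was fitted with limma 3.58.1 (trend and robust, R 4.3.3) with 6 group means over all 18 libraries, for genes with 3 or more libraries at 1 TPM or above. The average knockout effect is the mean of the 3 differences between knockout and control, and an F test compared the 3. P-values were adjusted by Benjamini-Hochberg over 11548 genes, with a threshold of 0.05. TMM and median-of-ratios factors were computed from the TPM. The script was tested on simulated data.

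The genes named are Kdm7a, the 12 largest rises and 12 largest falls called in all 3 conditions without overlap at a mean of 5 TPM or more (unnamed gene models left out), the 6 largest opposite effects, the 6 of one sign with the largest gap between conditions, 8 markers, and up to 4 called members of each of 35 gene lists, of which some are shown and some are not reported here. Names of other list members and of promoters were added after their values were seen. Members and lists were chosen with earlier results of these data known. Positions and promoters are from RefSeq, on GRCm38.p6, by gene symbol: 23194 of 24411 symbols matched. Alternatives covered scaling, pseudocount, filter, variance trend, replicate block, and leaving out libraries or conditions.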

Additional observations from a re-analysis of the deposited data

Results flagged for a closer look

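The knockout effect differed between M0, M1 and M2 for 5268 genes by the limma F test, and for 60 of 77 genes named in the text. Each value below is the gap between the highest and the lowest of a gene's 3 condition effects, in log2 units. Adding 1 TPM understates changes at low levels, so a gap can also come with like ratios at unlike levels. Knockout Cd200r2 was at 13.4%, 10.55% and 14.4% of control in M0, M1 and M2, and Msr1 at 8.95%, 52.5% and 60.6%. The F test called 4984 genes with a pseudocount of 0.1 TPM and 5413 with 5 TPM. The part of the added 1 TPM in each gap was not tested.

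The gap was 0.38 for Kdm7a itself. Among the shared falls it was 1.96 for Msr1, 1.71 for Rhox5, 1.52 for Gpr34, 1.39 for Cd200r2, 1.20 for Cd200r4, 0.93 for Fam172a, 0.82 for Axl, 0.55 for Cd86 and 0.54 for Zfp97. For Rhox5, Fam172a and Zfp97 the knockout level was under 1 TPM in each library, and for these and Gpr34 the control level was lowest in M1. Among the shared rises it was 2.05 for Qprt, 1.78 for H2-Ab1, 1.60 for Afp, 1.32 for Il11ra1, 1.12 for Pcdh7, 1.11 for Tmem26, 1.04 for Hpn, 0.62 for Akr1c12, 0.58 for Btla, 0.48 for Capn1 and 0.33 for Kctd17.

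The genes with opposite effects had gaps of 3.28 (Hbegf), 2.74 (Cd300lh), 2.58 (Mcoln2), 2.33 (Spsb1), 2.31 (Siglech) and 2.28 (Asb11). Those whose average rested on 1 or 2 conditions had gaps of 3.17 (Il1rn), 3.17 (P2ry12), 2.99 (Ccl22), 2.85 (Plk2) and 2.19 (H2-Ea-ps). Markers of the treatments had gaps of 2.37 (Arg1), 1.83 (Tgm2), 1.70 (Il1b), 1.11 (Cxcl10), 0.45 (Socs3) and 0.41 (Tnf).

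In the stress lists, gaps were 1.0 for Gdf15, 0.69 for Creld2, 0.64 for Asns, 0.58 for Manf, 0.43 for Ddit3, 0.35 for Trib3 and 0.29 for Dnajc3. In the glycolysis and hypoxia lists they were 1.05 for Hk3, 0.49 for Ndrg1 and 0.25 for Aldoc. For receptors and antigen presentation they were 1.78 for H2-Aa, 1.32 for Cd36, 1.04 for Cd74, 0.80 for C5ar1, 0.62 for Clec4a3 and 0.42 for Csf1r. Other gaps were 1.61 for Dcstamp, 1.17 for Ccnb1, 1.10 for Plau, 0.79 for Cd63, 0.72 for Plin2 and 0.50 for Ctsd.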

How the results depend on the processing

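Of 2366 alternative values for 77 named genes, 2341 kept their direction and their side of the threshold, 10 were no longer called, 2 became called and 13 changed sign. Of 283 alternative counts, 273 stayed within 1.5 times the value reported. An additive fit, with condition as a covariate and 1 knockout effect, called 1493 genes higher and 2685 lower. The genes changed 2-fold or more became 100 higher and 115 lower with a pseudocount of 0.1 TPM, and 10 and 14 with 5 TPM. Without the M1 libraries 2181 genes were lower on the average and 1589 differed between conditions. The next 2 choices were made after seeing the data. Without the first and second control M2 libraries, 265.0 genes were lower in all 3 conditions and 496 had opposite signs, with fewer samples in the fit. With a threshold of 0.01, 162 were higher and 234 lower in all 3 conditions. The cause of the other shifts was not tested.

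Leaving out each library in turn gave 1952 to 2371 higher and 3507 to 3738 lower genes on the average, 219 to 318 higher and 347 to 421 lower in all 3 conditions, 4835 to 5730 that differed, and 644 to 1054 with opposite signs. Those changed 2-fold or more numbered 41 to 48 and 43 to 47, and those without overlap 380 to 472 higher and 695 to 773 lower. The highest counts of 2371, 318, 421, 5730, 1054 and 472 all came from leaving out knockout M2 replicate 1. The counts without overlap were 368 and 669 with all 18 libraries, and fewer libraries leave fewer values that can overlap.

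Among the named genes whose average was recomputed under each alternative, 3 changed sign. The 6 genes named for opposite effects are not among these, since only the gap between their conditions was recomputed. Nos2 ranged from −0.23 to 0.16 over the left-out libraries, and was 0.16 with a pseudocount of 0.1 TPM, 0.23 without M2 and 0.38 without the 2 control M2 libraries. Il6 ranged from −0.11 to 0.095 and was −0.14 without M0. Il1b was −0.087 without M1.

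The replicate numbers showed no clear pairing of the libraries within a condition. Same-numbered libraries of the 2 genotypes correlated at −0.14 to 0.07 in their deviations, and 8 of 18 libraries correlated best with their own number. With 3 libraries per group, these values cannot show whether a weak pairing exists. With the replicate block, 2095 genes were higher and 3685 lower on the average, 258 higher and 425 lower in all 3 conditions, 5192 differed and 775 had opposite signs. The depth of each library is unknown, so counting error could not be set apart from the spread between libraries.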
